A study of Homo sapiens with 12 samples.

Results

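Of the 38121 ATAC-seq peaks measured in the series, 7969 (20.9%) are the members described here, peaks inside the span of a spliced gene, away from span starts and from dense groups of peaks. ATAC-seq counts the DNA fragments that the transposase Tn5 cuts out of accessible chromatin, and a peak is a stretch where such cuts pile up. Peaks joined in a chain of 5 or more, with gaps of 12.5 kb or less, were left out. A gene was taken as the span from its first to its last exon in the skipped exon splicing table, which gave 13426 spans and leaves out genes with no skipped exon event. A member overlapped a span and lay over 1 kb from the 5' end of every span. The members fell in 4151 host genes, and 7771 of them overlapped only 1 span. The other classes were 2098 peaks in chains, 3568 unclustered peaks within 1 kb of a span start and 24486 other unclustered peaks in no span. Of these last, 13653 lie in a RefSeq gene, so most unclustered peaks inside RefSeq genes are not members.

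The cells were T-47D, an established oestrogen receptor positive line of human luminal breast cancer, labelled as wild type. They received 1 µM palbociclib, which inhibits the cyclin D dependent kinases CDK4 and CDK6, or the solvent DMSO (0.1% in the ATAC-seq cultures) for 24 h. Each treatment has 3 ATAC-seq and 3 poly(A) RNA-seq libraries. The ATAC-seq replicates came from separate dishes, and the labels do not say whether the RNA replicates did, so their p-values may cover technical spread alone. All libraries come from this 1 line. ATAC reads in peaks ran from 12830062 to 18250496 per library. All 7 luminal markers checked were expressed in the RNA, and their summed level was 5218 to 5739 FPKM with DMSO and 7145 to 7895 FPKM with palbociclib. TP63, the only one of 4 basal markers with a value here, stayed at or under 0.113 FPKM. COL1A1, a collagen gene of fibroblasts, read 23.1 to 26.0 FPKM in all 6 libraries, with the other 2 fibroblast genes measured at or under 0.520 FPKM. The part of these levels in the results below was not tested.

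Accessible sites inside genes are often enhancers, which bind transcription factors and act on the host gene or on a neighbour, and some are internal promoters or sites of architectural proteins such as CTCF. Palbociclib keeps the retinoblastoma protein RB1 and its relatives RBL1 and RBL2 free of phosphate, so that E2F factors do not switch on the genes of DNA replication and mitosis. E2F acts mainly at gene starts, which the members leave out by construction.

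Checked on RefSeq, 96.0% of members lay in a RefSeq gene. Yet 506 of the 7630 members on chromosomes with promoter entries (6.63%) lay within 1 kb of a RefSeq gene start that is not the start of a span. RefSeq starts here are those with a promoter entry, and the entries lack the starts of some genes. The PEG10 member lay 1.84 kb from its span start and 99312 bases from the nearest listed start. Members counted as over 1 kb from every RefSeq start can thus lie near an unlisted one. A RefSeq promoter window, 250 bases before to 50 bases after a start, overlapped 399 members. The windows under the 3 members with the lowest p in each direction are shown because falls at such internal starts recur in the results. Sequences are from RefSeq on GRCh38.p14, 5' to 3' on the gene's strand, and capitals mark matches to any of 10 motifs on either strand. These are the GC box GGGCGG, the CCAAT box, the AP-1 motif TGACTCA, the forkhead motif TGTTTAC, the GATA motif AGATAA, an E2F motif as TTCCCGCC or as TTTCCCGC or as TTTGGCGC, the oestrogen receptor half-site AGGTCA and the ETS motif ACCGGAAG. The first pair of E2F forms overlap each other, and in FAM111A they also overlap a GC box in 1 run of capitals. Under members called lower lie FAM111A (chr11:59144612-59144911, plus strand), PCLAF (chr15:64381392-64381691, minus strand) and GINS1 (chr20:25407423-25407722, plus strand).
FAM111A: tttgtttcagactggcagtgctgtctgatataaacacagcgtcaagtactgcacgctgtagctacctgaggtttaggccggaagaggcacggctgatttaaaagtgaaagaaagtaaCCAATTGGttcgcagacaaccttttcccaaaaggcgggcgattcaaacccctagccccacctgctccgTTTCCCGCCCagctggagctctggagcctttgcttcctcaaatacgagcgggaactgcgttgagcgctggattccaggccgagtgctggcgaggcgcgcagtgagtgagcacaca
PCLAF: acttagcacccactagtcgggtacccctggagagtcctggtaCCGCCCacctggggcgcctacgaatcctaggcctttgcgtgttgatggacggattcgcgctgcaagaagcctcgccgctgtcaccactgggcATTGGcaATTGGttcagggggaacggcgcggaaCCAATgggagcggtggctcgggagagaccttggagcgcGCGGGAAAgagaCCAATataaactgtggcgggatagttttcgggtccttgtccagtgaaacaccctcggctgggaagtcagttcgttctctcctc
GINS1: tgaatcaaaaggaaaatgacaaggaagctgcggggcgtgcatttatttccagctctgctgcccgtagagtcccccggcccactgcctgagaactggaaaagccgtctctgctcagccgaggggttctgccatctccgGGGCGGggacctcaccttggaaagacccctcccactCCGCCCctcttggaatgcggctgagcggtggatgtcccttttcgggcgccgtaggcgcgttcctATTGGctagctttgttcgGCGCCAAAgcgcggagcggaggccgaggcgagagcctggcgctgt
Under members called higher lie NET1 (chr10:5446301-5446600, plus strand), EIF4G1 (chr3:184320013-184320312, plus strand) and LOC105370886 (chr15:71093381-71093680, minus strand).
NET1: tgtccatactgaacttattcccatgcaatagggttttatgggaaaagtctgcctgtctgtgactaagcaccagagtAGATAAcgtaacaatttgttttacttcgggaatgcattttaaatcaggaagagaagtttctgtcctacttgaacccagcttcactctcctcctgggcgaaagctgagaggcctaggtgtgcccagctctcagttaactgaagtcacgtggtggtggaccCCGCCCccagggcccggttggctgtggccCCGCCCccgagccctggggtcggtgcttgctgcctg
EIF4G1: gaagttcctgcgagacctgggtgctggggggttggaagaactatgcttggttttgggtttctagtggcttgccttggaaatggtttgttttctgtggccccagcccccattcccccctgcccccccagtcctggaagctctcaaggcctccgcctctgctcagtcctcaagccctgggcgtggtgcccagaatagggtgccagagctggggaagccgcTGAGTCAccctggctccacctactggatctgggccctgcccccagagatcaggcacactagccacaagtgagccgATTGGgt
LOC105370886: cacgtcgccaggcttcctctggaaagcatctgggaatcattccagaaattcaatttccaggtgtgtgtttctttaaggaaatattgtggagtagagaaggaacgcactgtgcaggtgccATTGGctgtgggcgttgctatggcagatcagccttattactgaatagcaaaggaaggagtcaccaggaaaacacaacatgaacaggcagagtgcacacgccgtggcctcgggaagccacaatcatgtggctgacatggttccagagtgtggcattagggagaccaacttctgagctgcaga

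Each of the 3 windows under a falling member holds an E2F match, and none of the 3 under a rising member does. Over all members, an E2F match of any of the 3 forms was in 7 of 58 windows under members called lower (12.1%), in 0 of 18 under members called higher and in 18 of 405 under members not called (4.44%). All 35116 RefSeq windows of this length hold one in 4.59% of cases, and windows under peaks within 1 kb of a span start in 8.65%. The median GC content was 63.3% under falling, 46.0% under rising and 60.7% under uncalled members, so the sets differ in base composition. A GC box was in 60.3% of windows under falling members, against 45.0% of all windows. Under peaks within 1 kb of a span start the share was higher, 71.4%. The AP-1 letters were in 11.1% of windows under rising members and in 4.95% of all windows, and with 18 windows such a share rests on few sequences.

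Palbociclib raised more members than it lowered. A peak is called here when the edgeR quasi-likelihood test, adjusted over all 38121 peaks by Benjamini-Hochberg, gives a p under 0.05, and 648 members were called higher (8.13%) and 412 lower (5.17%). Over all peaks the called share was 11.9%, with 5.41% higher and 6.46% lower. So 13.3% of members were called, close to the background, while the split differed: 61.1% of the called members were higher, against 45.5% of all called peaks. Peaks in chains had 88 higher and 283 lower, those at span starts 52 higher and 389 lower, and those in no span 1273 higher and 1380 lower. The peaks in no span but in a RefSeq gene had 644 higher and 869 lower (42.6% higher), and those in no RefSeq gene 629 and 511 (55.2%), so the higher share among members does not describe all peaks inside genes. The next counts take only peaks over 1 kb from every listed RefSeq start, a split made after seeing the data. The calls in RefSeq genes without a span were then 551 higher and 532 lower (50.9%), and those of members 591 and 343 (63.3%). Over the scalings, the DESeq2 test and the fits that left out a library, these shares ran from 44.1% to 61.6% and from 56.5% to 71.2%. These classes are described side by side, with no test between them. Changes were small: the median log2 fold change was 0.44 among members called higher and -0.37 among those called lower, and 6 in each direction reached 1 on the log2 scale. Over all members the median was 0.037, against 0.004 over all peaks.

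**Figure D1:**
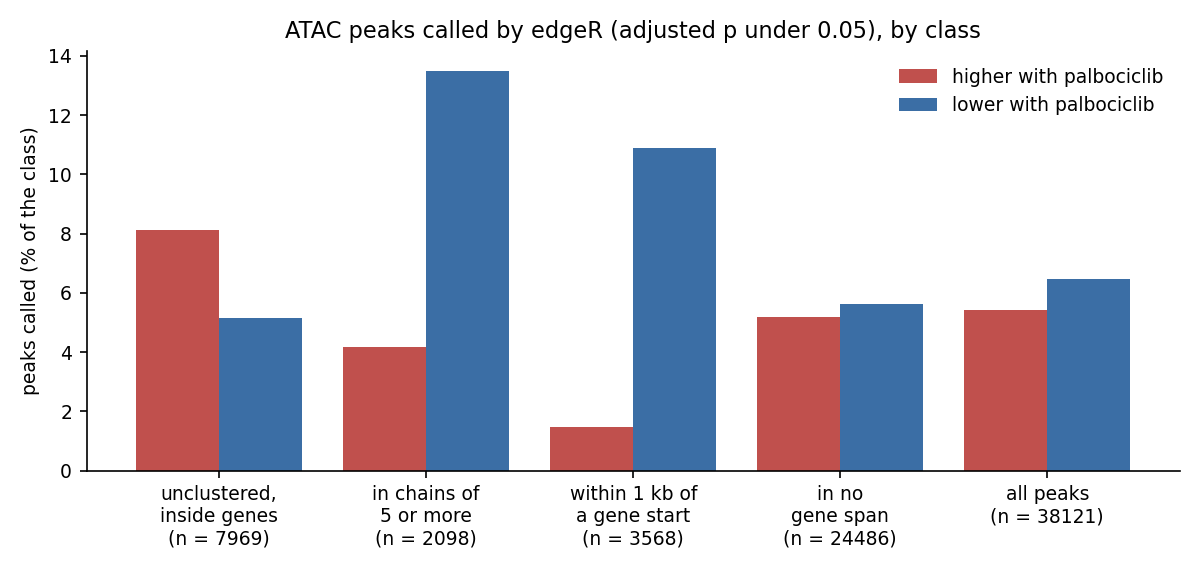
Share of peaks in each class called higher (red) or lower (blue) with palbociclib by edgeR, in percent of the class on the y axis, with the number of peaks under each class. Members, at the left, have 8.13% higher and 5.17% lower, and span starts have 1.46% higher and 10.9% lower.

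The balance depends on how the libraries are scaled, and members stayed on the higher side in each scaling. With library totals in place of TMM scaling, 69.5% of called members were higher and so were 55.9% of all called peaks, and the peaks in no span then also had more higher (1599) than lower (1134). With an offset smoothed on abundance the share was 59.2% for members. The counts themselves lean on single libraries: without DMSO replicate 1, DMSO replicate 3 or palbociclib replicate 1 the members called higher numbered 414, 379 and 418, and without DMSO replicate 3 the members called lower numbered 263. In all 6 fits that left out 1 library, 212 of the 648 rises and 169 of the 412 falls were called. The DESeq2 Wald test called 339 higher and 244 lower.

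Each library shows the same tilt. Members took 16.28%, 16.54% and 16.35% of the peak reads in DMSO replicates 1 to 3 and 16.76%, 16.90% and 16.70% in palbociclib replicates 1 to 3. The groups do not overlap, and the difference of the means is 0.40 percentage points. The 95% Wilson intervals of these shares span at most 0.040 percentage points and cover counting error only.

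Among weak members the calls were mostly rises, and among the strongest they were split. CPM here is a peak's read count scaled to a common library total after TMM. With members cut into 4 equal bins by mean CPM, the weakest bin had 140 higher and 38 lower, and the strongest 179 higher and 196 lower. The other classes shifted the same way over these CPM ranges. Peaks in no span had 322 higher and 141 lower in the weakest and 307 and 694 in the strongest. Peaks in chains went from 7 and 5 to 49 and 191, and those at span starts from 3 and 5 to 37 and 338. Within each of the 4 CPM ranges the other classes had a smaller share of rises: in the strongest, 8.98% of members, 4.38% of peaks in chains, 1.26% of peaks at span starts and 5.30% of peaks in no span were called higher.

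The largest falls were deeper than the largest rises. By rule, the peaks named are those with the largest change, a mean of at least 50 counts and groups that do not overlap, 1 per host gene. Groups did not overlap in 29.5% of members and in 28.3% of all peaks. The peak in CRYBG1 (chr6:106510102-106511029), over no listed exon, read 51.0, 47.5 and 52.8 CPM in DMSO replicates 1 to 3 and 17.5, 17.5 and 17.6 CPM with palbociclib. All 3 treated libraries are thus far under all 3 controls, with a log2 fold change of -1.52 ± 0.081 (SE, n = 3 per group; edgeR adjusted p 8.32e-24). It lies 826 bases from a RefSeq gene start. FAM111A encodes a protease that binds the replication clamp PCNA, and its member (chr11:59144637-59145099), over the promoter window printed above, went from 62.5, 57.7 and 63.1 CPM to 24.9, 25 and 21.8 CPM (log2 -1.35 ± 0.075, edgeR adjusted p 4.52e-23). NFE2L1 encodes a transcription factor of proteasome genes, and its member (chr17:48055598-48056026) fell from 16.9 ± 1.77 to 5.96 ± 0.938 CPM (mean ± SD, n = 3). EXD3 held a strong member (chr9:137316123-137317026) that fell from 86.8 ± 4.36 to 42.7 ± 2.65 CPM. The other falls among the 10 were in HSH2D, ZNF594-DT, DOCK6, MYO9B, the integrin gene ITGA3 and EPS15L1, with log2 fold changes from -0.86 to -1.14.

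The largest rises were about 1 on the log2 scale, and most were in weak peaks. RNLS encodes the flavoprotein renalase, and its member (chr10:88387090-88387487), 196 kb into the gene, read 11.9, 14.9 and 11.8 CPM in DMSO and 26.4, 28.8 and 26.5 CPM with palbociclib (log2 1.07 ± 0.10, edgeR adjusted p 1.12e-12). A member shared by the spans of CTSZ, a lysosomal protease gene, and NELFCD, a subunit of the factor that pauses RNA polymerase II (chr20:58987990-58988669), rose by the same log2 value, from 10.9 ± 1.69 to 23.2 ± 2.53 CPM. RBL1 encodes p107, a relative of RB1. The RBL1 member (chr20:37007845-37008404), 87.9 kb into the gene, went from 4.32, 4.22 and 5.00 CPM to 8.33, 9.79 and 9.33 CPM (log2 1.02 ± 0.16, edgeR adjusted p 6.02e-06). The RNA of RBL1 moved the other way, from 9.37, 9.10 and 10.3 FPKM to 2.16, 1.95 and 2.31 FPKM. The remaining rises were in GARS1, a transfer RNA synthetase gene, TRAPPC9, UHRF1, the amino acid transporter gene SLC7A1, MIR924HG, BTAF1 and TEX2, with log2 fold changes from 0.90 to 1.05. All 20 of these calls held in each fit that left out 1 library.

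**Figure D2:**
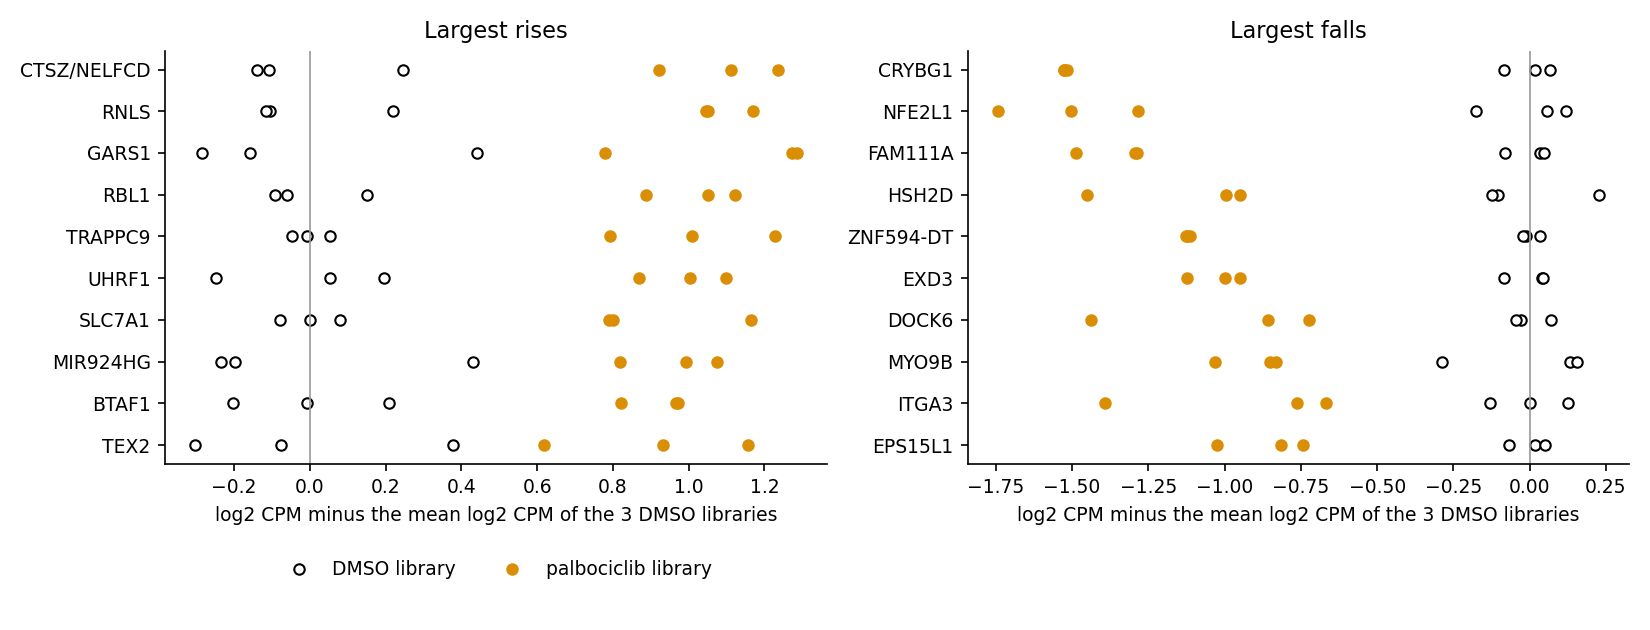
Members with the 10 largest rises (left) and the 10 largest falls (right), 1 row per host gene. The x axis is log2 CPM minus the mean log2 CPM of the 3 DMSO libraries, open circles are DMSO libraries and filled circles palbociclib libraries. No row has overlapping groups, since the rule required that, and CRYBG1, NFE2L1 and FAM111A fall furthest.

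The distance of a member from its host start went with its direction, while its relative place along the span showed no steady order. With spans cut into 5 equal parts, the higher share of calls was 54.9%, 67.7%, 60.6%, 63.1% and 59.5% from the 5' end on. Members under 5 kb from the host start had 40 higher and 69 lower, those at 5 to 20 kb 143 and 119, and those at 100 kb or more 149 and 70. The order at 5 to 20 kb turned when DMSO replicate 1 was left out (84 higher, 91 lower), and likewise for palbociclib replicate 2 (96 and 101). The median log2 change went from -0.015 in the nearest bin to 0.066 in the farthest, over 631 and 1828 members. The nearest bin also held stronger members, with a median of 25.6 CPM against 10.7 CPM in the farthest. More of its members lay within 1 kb of a RefSeq start, 17.2% against 4.64%. The part of strength and of RefSeq starts in this trend was not tested. In the farthest bin the median member stood at 0.064, 0.061 and 0.065 above the DMSO mean in palbociclib replicates 1 to 3, and in the nearest bin at -0.009, -0.007 and -0.037. The nearest bin is sensitive to scaling, with 51 higher and 59 lower under library totals and 53 and 58 with the offset smoothed on abundance. Without DMSO replicate 1 the higher share of its calls was 27.3%, against 36.7% with all libraries. Members over an exon listed in the splicing table, 17.2% of all, had 104 higher and 103 lower. Those over none had 544 higher and 309 lower. The median was 17.1 CPM over an exon and 11.7 CPM over none, and the part of strength here was not tested. The even split over exons went to 76 and 80, 79 and 86, or 73 and 84 when DMSO replicate 1, DMSO replicate 2 or palbociclib replicate 2 was left out. Members within 1 kb of a RefSeq start had 25 higher and 52 lower, and those farther from every such start 591 and 343.

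Crowding and gene size went with direction too. Lone members had 360 higher and 157 lower, and members in chains of 3 had 66 and 86, which became 79 and 64 under library totals and 50 and 49 without palbociclib replicate 1. Host spans under 30 kb held 83 rises and 126 falls, and spans of 300 kb or more held 98 and 47. These groupings overlap: lone members made up 36.6% of the members in spans under 30 kb and 64.0% in spans of 300 kb or more. They also differ in strength, with a median of 10.6 CPM for lone members and 17.2 CPM in chains of 3. In spans under 30 kb the median was 16.8 CPM, and in those of 300 kb or more 10.7 CPM. The part of strength in these splits was not tested. Chromosome 19 had more falls (32) than rises (17) among its 313 members, and chromosome 13 had 12 rises and 1 fall among 134. These 2 were picked as the extremes after the values of all chromosomes were seen. Their called shares were 15.7% and 9.70%, against 13.3% of all members. At the edges of the rule, unclustered peaks in a span 0.5 to 1 kb from a start, just outside, had 2 higher and 16 lower of 147, and members at 1 to 1.5 kb had 6 and 15 of 126. Chains of 4, just inside, had 49 higher and 38 lower of 547, an order that turned to 29 and 32 when DMSO replicate 1 was left out and to 32 and 35 when palbociclib replicate 2 was. Peaks in chains of 5 inside spans had 16 and 14 of 241.

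The share of rises was highest in genes whose RNA fell. RNA was compared with limma on log2(FPKM + 1), which understates changes of low genes, and at an adjusted p under 0.05 it called 43.7% of genes, 20.9% higher and 22.9% lower. Among members with 1 host, 155 of the 1412 in hosts with lower RNA were higher (11.0%) and 76 lower. In hosts with higher RNA 153 of 2011 were higher (7.61%) and 121 lower, an order that turned without palbociclib replicate 2 (102 and 111). The median member read 10.9 CPM in hosts with lower RNA and 15.1 CPM in hosts with higher RNA. The part of this difference in strength was not tested. Where host RNA fell by at least 1 on the log2 scale, 33 of 129 members were higher (25.6%) and 10 lower, from 28 and 9 genes, with a median log2 change of 0.18. The median of these 129 members stood at 0.140, 0.151 and 0.194 above the DMSO mean in palbociclib replicates 1 to 3 and between -0.013 and 0.028 in the DMSO libraries. In such bulk samples, fewer cells of a type and less RNA per cell cannot be told apart, and the same holds for accessibility.

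The peaks at the span starts of the genes with strongly lower RNA moved the opposite way. Of the 141 peaks within 1 kb of the start of a span whose RNA fell by at least 1, 0 were higher and 87 lower by edgeR (61.7%), with a median of -0.22, and 1 was higher at an unadjusted p under 0.05. That split was 0 and 83 under library totals, 1 and 78 with the smoothed offset and 0 and 80 by the DESeq2 Wald test. For members the splits were 36 and 9, 32 and 9, and 19 and 8. The few members of these hosts within 1 kb of a RefSeq start sided with the span starts: of 10, 0 were higher by edgeR, by DESeq2 or at an unadjusted p under 0.05, and 6 were lower, in PCLAF, GINS1, PCNA, CDC25C, ESAM and C21orf58. Of the 114 over 1 kb from every listed RefSeq start, 31 were higher and 4 lower. The fall in CHRNA5, among these 4, lay 1.43 kb from its span start and 25895 bases from the nearest listed start. Hosts with RNA higher by at least 1 had only 5 members, 0 higher (also by DESeq2 or unadjusted p) and 2 lower by edgeR. The 2 kinds of peak differ in strength, with a median of 12.4 CPM over all members and 54.8 CPM over all peaks at span starts. The part of strength, depth, library and scaling in the contrast was not tested beyond these fits.

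**Figure D3:**
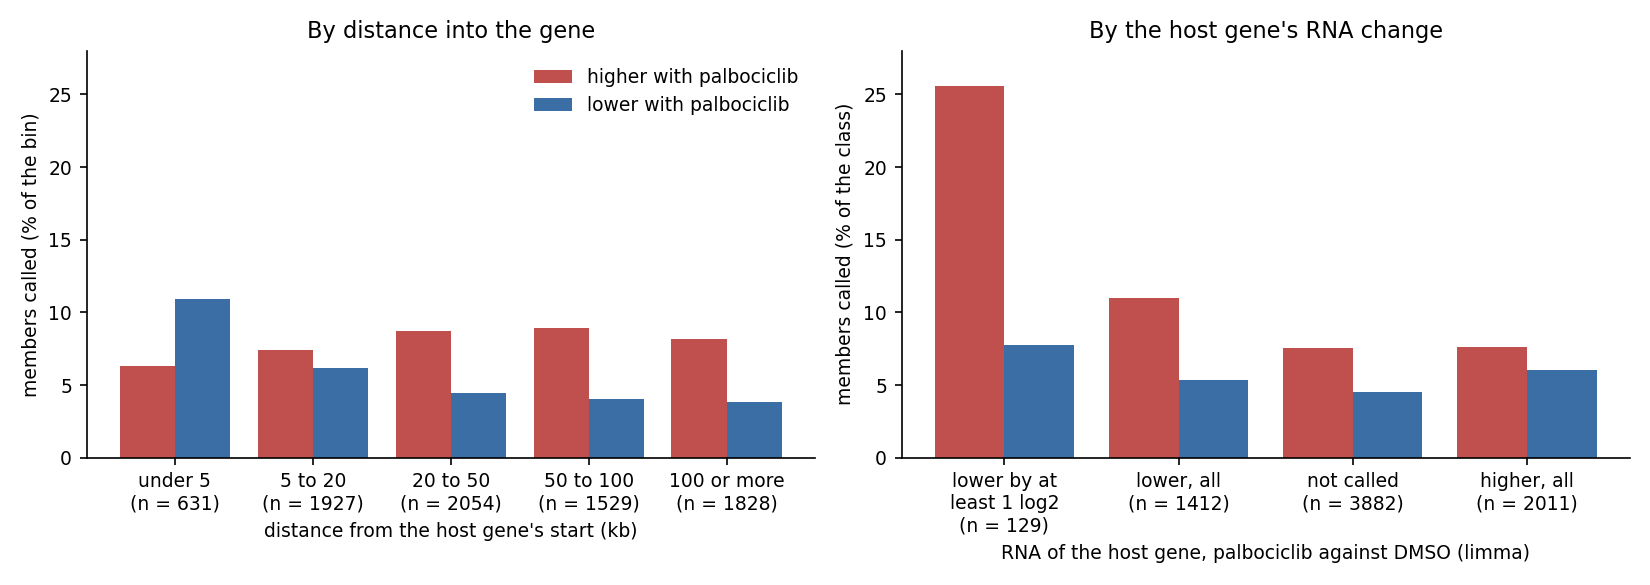
Share of members called higher (red) or lower (blue), in percent on the y axis, by distance from the host start (left) and by the limma call of the host gene's RNA (right), with the number of members under each bar pair. Falls exceed rises only under 5 kb, and hosts with RNA lower by at least 1 log2 have 25.6% of members higher and 7.75% lower.

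Counted by gene, members and RNA moved in the same direction in 194 host genes and in opposite directions in 222. Of the 542 genes whose called members were all higher, 515 were tested in RNA, with 131 higher (25.4%) and 129 lower. Of 331 genes with called members all lower, 302 were tested, with 93 higher and 63 lower (30.8% and 20.9%). Over all host genes tested, 24.9% were higher and 22.4% lower. Without ATAC DMSO replicate 3 the counts of same and opposite direction were 126 and 143.

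**Figure D4:**
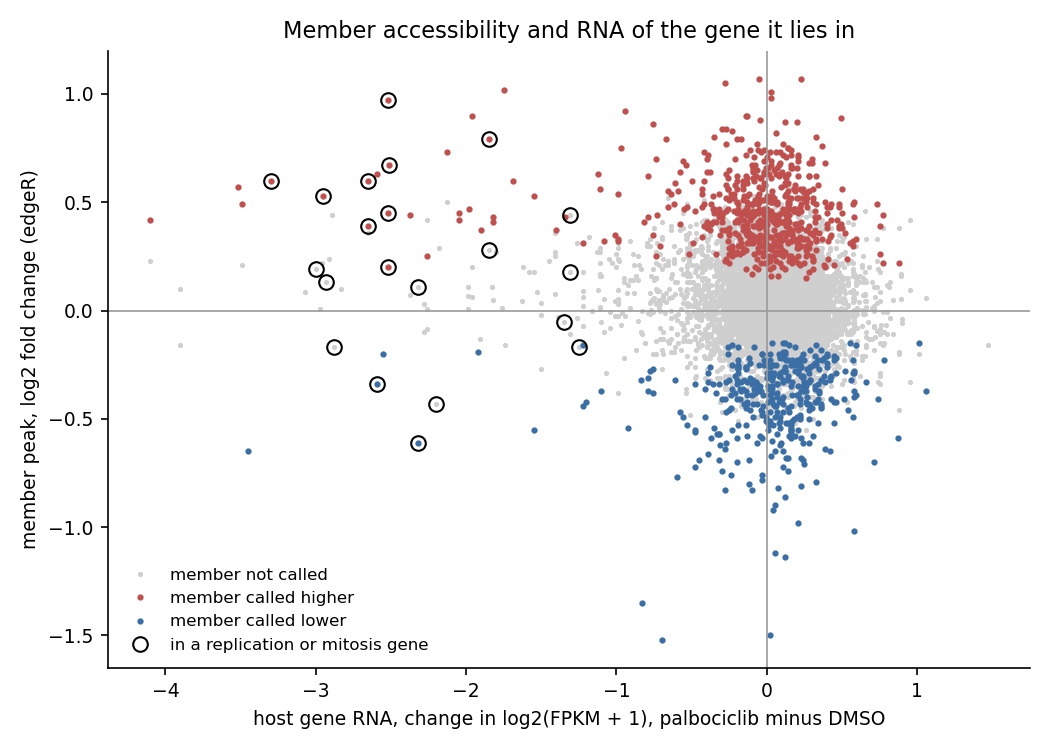
Change of each member that has 1 host (y axis, edgeR log2 fold change) against the change of the host gene's RNA (x axis, log2(FPKM + 1), palbociclib minus DMSO). Red and blue points are members called higher and lower, grey points are not called, and rings mark members in genes of the DNA replication and mitosis list. Most points at RNA changes under -1 lie above 0 on the y axis.

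Members inside genes of DNA replication and mitosis rose more often than they fell, while peaks at the starts of the same genes fell. The list was written with results of these data in view, and its RNA was lower by limma in all 75 genes tested (median log2 -2.58). It held 22 members in 16 genes, of which 9 were higher and 2 lower, with a median of 0.19. All 9 rises and the 2 falls are among the 33 rises and 10 falls given above for hosts with RNA lower by at least 1. They are thus a part of that result and not a separate one. The median member of the list stood at 0.170, 0.168 and 0.197 above the DMSO mean with palbociclib and between -0.055 and 0.040 in DMSO. At the span starts of these genes, 16 of 22 peaks were lower and 0 higher by edgeR, by DESeq2 or at an unadjusted p under 0.05.

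UHRF1 brings the maintenance DNA methyltransferase DNMT1 to newly copied DNA, and all 3 of its members were called higher. The one 30.2 kb in (chr19:4939417-4939916) read 7.55, 8.34 and 6.13 CPM in DMSO and 13.3, 15.6 and 14.6 CPM with palbociclib (log2 0.97 ± 0.13, edgeR adjusted p 1.45e-07). The member 2.7 kb in (chr19:4911860-4912393) rose from 28.7, 30.9 and 32.9 CPM to 43.1, 44.4 and 39.2 CPM, without overlap. UHRF1 RNA fell from 35.3, 34.1 and 33.5 FPKM to 5.18, 5.51 and 4.76 FPKM (log2 -2.52 ± 0.055; adjusted p 4.70e-09 from limma). The remaining UHRF1 member had a rise of 0.20, and that call was lost without DMSO replicate 1 or palbociclib replicate 2 (edgeR adjusted p up to 0.0912).

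CENPF, a kinetochore protein gene, had a member 36.9 kb in (chr1:214658722-214659247) at 22.1, 22.6 and 25.2 CPM in DMSO and 31.5, 40.2 and 34.8 CPM with palbociclib (log2 0.60, edgeR adjusted p 3.98e-07). BRCA2, a gene of recombination repair, had one 65.3 kb in (chr13:32381502-32381854) at 3.54, 3.9 and 3.88 CPM against 6.31, 7.14 and 6.20 CPM (log2 0.79). In both members the groups do not overlap, at low counts for BRCA2. KIF23, a kinesin of cell division, and HMMR, a spindle protein gene, rose by 0.67 and 0.60 (edgeR adjusted p 0.00183 and 0.00270). The kinesin gene KIF11 and the second CENPF member rose by 0.53 and 0.39, but these calls were lost without 1 of several libraries (DMSO replicate 1 or 2 or palbociclib replicate 2 for KIF11, and DMSO replicate 2 or 3 or palbociclib replicate 1 or 2 for CENPF), with edgeR adjusted p up to 0.142 and 0.159. In all 6 such fits, 6 of the 9 rises were called.

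The 2 falls of the list were at RefSeq starts inside the spans. GINS1 encodes a subunit of the replicative helicase, and its member over the printed promoter (chr20:25407239-25408061) went from 45.2, 43.4 and 45.7 CPM to 31.3, 28 and 28.7 CPM (log2 -0.61 ± 0.075, edgeR adjusted p 8.88e-09). A second GINS1 member, 8.21 kb from the span start, read 12.3, 11.0 and 11.6 CPM against 11.6, 12.8 and 13.3 CPM, which overlap. The PCNA member (chr20:5119385-5120337) fell from 189, 172 and 199 CPM to 151, 152 and 140 CPM (log2 -0.34, edgeR adjusted p 4.96e-07). Without members within 1 kb of a RefSeq start the list had 9 higher and 0 lower of 19 by edgeR (0 lower by DESeq2, 1 at an unadjusted p under 0.05), with a median of 0.28.

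**Figure D5:**
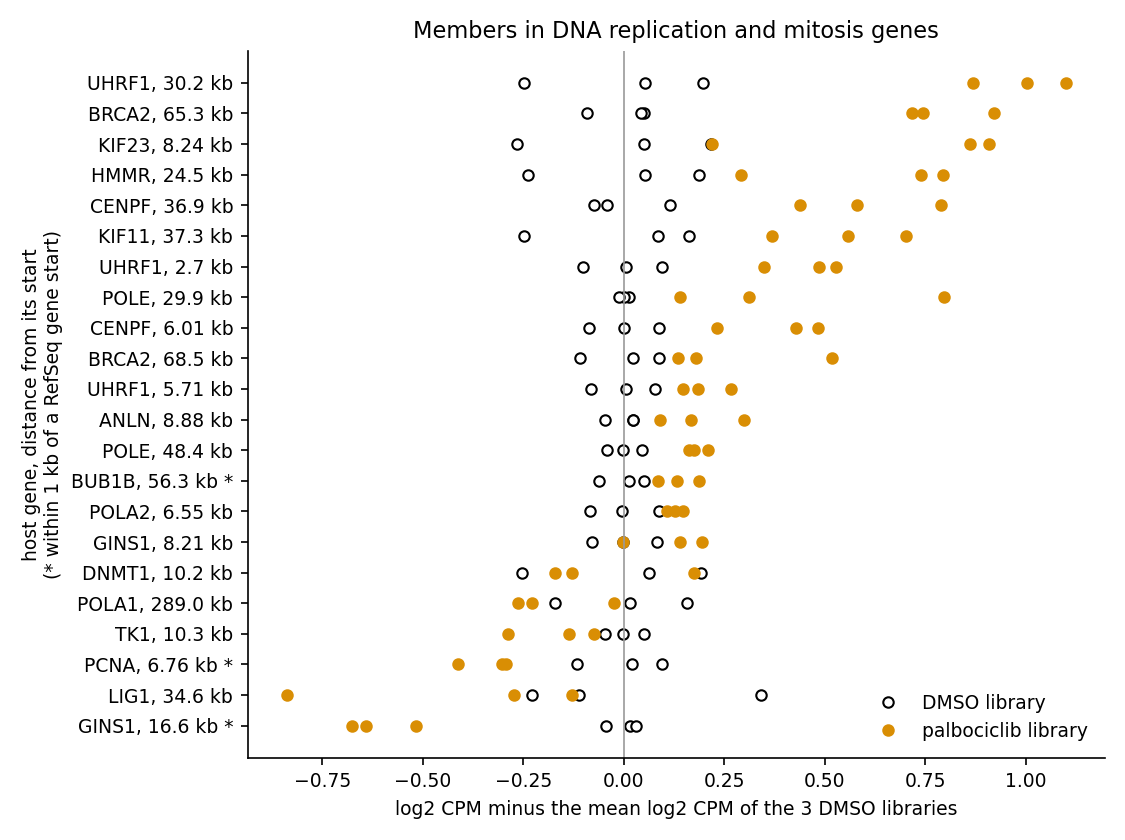
All 22 members in DNA replication and mitosis genes, 1 row each, labelled by host gene and distance from the span start, with an asterisk for those within 1 kb of a RefSeq gene start. The x axis is log2 CPM minus the mean log2 CPM of the 3 DMSO libraries, open circles are DMSO and filled circles palbociclib libraries. GINS1 at 16.6 kb and PCNA, both with an asterisk, fall to the left, and the rows at the top, from UHRF1 at 30.2 kb to KIF11, lie to the right.

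The CDK4/6 and RB pathway, the drug's own target pathway, had 5 of 20 members higher and 2 lower. So 35.0% were called, against 13.3% of all members. RNA of the pathway was lower in 26 of 35 genes tested and higher in 2. RBL1 led the rises, as given above. The other rises, in LIN52, TFDP2, MYBL2 and CCND3, ran from 0.25 to 0.69 and each was lost without DMSO replicate 3 and without at least 1 other library, with edgeR adjusted p up to 0.263. CDKN1A encodes the kinase inhibitor p21, and its member (chr6:36680256-36680774), 3.99 kb in, fell from 38.8, 35.6 and 40.9 CPM to 26.2, 24.8 and 27.9 CPM (log2 -0.54, edgeR adjusted p 8.71e-07). CDKN1A RNA was lower too (log2 -0.92). CCND1 encodes cyclin D1, the partner of CDK4. One CCND1 member (chr11:69643250-69643866) fell from 39.7, 40.7 and 42.6 CPM to 32.5, 32 and 30.7 CPM (log2 -0.37, edgeR adjusted p 0.000321) while CCND1 RNA rose from 98.7, 97.2 and 94.3 FPKM to 205, 205 and 199 FPKM. A second CCND1 member, 3.27 kb from the start against 2.40 kb for the first, read 48.3, 44.6 and 48.2 CPM against 47.5, 51.6 and 47.8 CPM.

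Members in luminal and oestrogen receptor genes were called about as often as all members, and the RNA of most of these genes rose. Of 35 members in luminal transcription factor genes 1 was higher and 4 lower (14.3% called, median log2 -0.059), and RNA was higher in 19 of 22 genes and lower in 0 by limma, also at an unadjusted p under 0.05. Of 33 members in oestrogen receptor target genes 0 were higher and 5 lower by edgeR (0 higher by DESeq2, 1 at an unadjusted p under 0.05), which is 15.2% called with a median of -0.006, and RNA was higher in 25 of 34 genes and lower in 4. These called shares are near the 13.3% of all members. The 2 lists share PGR, RARA, XBP1 and MYB, and of these only PGR and RARA hold members. PGR encodes the progesterone receptor, and its member 94.7 kb in (chr11:101034013-101034701) fell from 82.3, 84.1 and 93.9 CPM to 68.0, 71.7 and 58.3 CPM (log2 -0.39, edgeR adjusted p 3.48e-06), without overlap. PGR RNA went the other way, from 80.4, 82.1 and 83.6 FPKM to 120, 123 and 130 FPKM. RARA encodes a retinoic acid receptor, and its member 36.6 kb in fell from 35.0, 39.8 and 40.7 CPM to 28.7, 27.5 and 28.1 CPM (log2 -0.46). Its other 3 members were not called. The falls in RERG (-0.43 and -0.40) and in TRPS1 (-0.34) were each lost without 1 or more single libraries: DMSO replicate 2 or palbociclib replicate 3 for the first RERG member, DMSO replicate 1 or 3 or palbociclib replicate 2 or 3 for the second, and any of the 6 for TRPS1. None of the 3 members in ESR1, the oestrogen receptor gene itself, was called, with log2 values from -0.29 to 0.11.

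The other 4 lists stayed near the share called over all members. Growth factor receptor and adaptor genes had 3 higher and 4 lower of 61 members. TGF-beta, Wnt and Hippo genes had 4 and 3 of 49, chromatin regulators 7 and 5 of 71, and adhesion, polarity and actin genes 6 and 4 of 92. Chromatin regulators held the histone demethylase genes KDM6A, with a rise from 13 ± 1.36 to 18.8 ± 1.72 CPM (log2 0.53, edgeR adjusted p 0.000494), and KDM4B, with a rise of 0.30 at 22.8 kb and a fall at 79.3 kb (log2 -0.29), the latter lost without DMSO replicate 2 or 3. In the adhesion list, a member in ARHGAP26 fell (log2 -0.83), while CTNND1, which encodes p120 catenin, and PTK2, the focal adhesion kinase gene, had rises of 0.36 and 0.67.

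Genes with several members seldom moved as a whole. Of the host genes, 2399 had 1 member, 847 had 2 and 905 had 3 or more. Among 139 genes with at least 2 called members, 60 had rises only, 38 falls only and 41 both. AUTS2 held the most members, 24 over a span of 1192 kb, with 2 higher and 1 lower and log2 values from -0.42 to 0.59. DLG2 had 23, PALM2AKAP2 22, RAD51B 22 and NAALADL2 19. RAD51B, which also serves recombination repair, had 5 higher and 1 lower, and a fall (log2 -0.32) and a rise (log2 0.26) were neighbours, 317 and 314 kb from the start. None of the 6 RAD51B calls held in all 6 fits that left out a library.

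In 8 genes, 3 or more members were called higher and none lower: ABHD2, CAPZB, ENSG00000258077, PALM2AKAP2, SPIDR, SYNE2, TRAPPC9 and UHRF1. Only in UHRF1, with 3 of 3 called, was every member above 0. PALM2AKAP2 had 3 of 22 called, near the 13.3% of all members, with a median log2 of 0.059 and a lowest value of -0.50. CAPZB had 3 of 9, with a median of 0.037 and a lowest value of -0.32. All 3 rises in SPIDR, a scaffold of recombination repair, held in every fit that left out a library, and of the 24 rises in these genes 12 did. SYNE2, a nuclear envelope protein gene, had none that did, and its mean RNA level was 20.7 FPKM with DMSO and 9.95 FPKM with palbociclib (log2 -0.99; adjusted p 3.02e-07 from limma). RNA of ENSG00000258077, a gene without a symbol here, rose from 3.95 to 5.90 FPKM. Only KCNMA1, a potassium channel gene chosen for mention after its values were seen, had 3 members called lower and none higher. These were 3 of 16 members, with a median log2 of 0.020 and a highest value of 0.45. Of the 3 falls, 1 held in every such fit.

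Genes called in both assays show each pairing. With both higher, PLGRKT, a plasminogen receptor gene, had a member 1.56 kb in at 10.1, 10.8 and 9.79 CPM against 21.0, 18.4 and 17.6 CPM, with RNA at 18.5, 18.9 and 21.3 against 27.1, 27.4 and 29.2 FPKM. CTSZ, GPR158, MICU2 and EIF4G1 were the others by rule, with RNA log2 changes of 0.11 to 0.33. With both lower, PCLAF, whose product binds PCNA, had a member over its RefSeq promoter (chr15:64381030-64381912) that fell from 72.7, 70.2 and 69.1 CPM to 45.5, 42.5 and 46.7 CPM (log2 -0.65 ± 0.063, edgeR adjusted p 2.12e-12). PCLAF RNA fell from 146, 140 and 142 FPKM to 13.1, 11.6 and 11.7 FPKM. The DNA demethylation gene TET3 lost accessibility 24.2 kb in, from 58.2, 52.9 and 50.9 CPM to 31.1, 33.5 and 32 CPM, with RNA lower by a log2 value of -0.30. CRYBG1, FAM111A and C7orf50 complete this group.

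The opposite pairings were found as well. CTCF encodes the architectural protein that holds chromatin loops, and its member 24.2 kb in rose from 27.9, 25.6 and 25.6 CPM to 41.3, 40.5 and 38.4 CPM (log2 0.61, edgeR adjusted p 2.60e-08) while its RNA was lower (log2 -0.26; adjusted p 0.00526 from limma). HAUS1, a subunit of the spindle complex augmin, rose from 11.6, 11.8 and 11.1 CPM to 19.6, 20.5 and 19.6 CPM with RNA at log2 -0.67. EXD3 had the reverse, with RNA from 9.12, 11.9 and 9.91 FPKM to 15.1, 16.5 and 15.8 FPKM beside a member that fell by 1.02 on the log2 scale. CRAT, carnitine acetyltransferase, and ENSG00000253768 followed, with member log2 values of -0.51 and -0.44.

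The strongest members changed little. By CPM per kb of peak, the first 4 were in DAGLA, SUN1, ATP9B and PEG10, with log2 fold changes from -0.010 to 0.057 and edgeR adjusted p of at least 0.522. The fifth, in SIN3A, a corepressor scaffold gene, fell from 207, 201 and 212 CPM to 181, 182 and 176 CPM (log2 -0.20, edgeR adjusted p 0.00125). Hairpins of 9 microRNA genes lay under members, and 2 of those members were lower, at MIR4734 (log2 -0.32) and MIR3175 in CHD2 (log2 -0.15).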

How the data were processed

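T-47D cells were measured by ATAC-seq and by poly(A) RNA-seq, 3 libraries per treatment and assay, grouped by their labels. Peak counts were made by the authors with featureCounts 2.0.6 on deduplicated alignments over 1 peak set, per the file headers, and are raw counts of reads, since no option for pairs is named. Bowtie2 2.5.4-6, MACS3 3.0.3-0 and build GRCh38 are listed in the submitters' processing notes. RNA values are FPKM as deposited by the authors, whose notes list STAR 2.7.10b and Salmon 1.10.2. The authors' DESeq2 table gives log2 fold changes and adjusted p-values as deposited, used only as an alternative. Gene spans came from exon coordinates of the authors' skipped exon table.

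Counts of all 38121 peaks, 12830062 to 18250496 per library, were fitted with edgeR 4.0.16 (quasi-likelihood test, TMM; filterByExpr removed 0 peaks) in R 4.3.3. The spread between replicates was 5.96% (biological coefficient of variation). RNA was fitted with limma 3.58.1 with a trend on log2(FPKM + 1), for the 15869 genes that averaged 0.5 FPKM or more. DESeq2 1.42.0 was an alternative for peaks. Fits were tested on simulated data. P-values were adjusted by Benjamini-Hochberg over each whole table, and only members are printed.

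Named peaks were the 10 largest rises and falls under the stated limits, the 5 with the highest CPM per kb, the genes with the most members or with 3 or more called one way, the 4 of lowest p per list, and host genes and promoters of lowest p per direction. Members and lists were chosen with earlier results of these data known. Alternatives covered scaling, test, filters, replicate block, single libraries and the member rule. Peak sequences were not read, since no genome was used here. Distances to RefSeq starts leave out chromosome 8 and cover only starts with a promoter entry, which some genes lack. A few members that the naming rule selects are not reported here.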

Additional observations from a re-analysis of the deposited data

How the results depend on the processing

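With 3 libraries per group, counts of calls fell with another test or a library fewer. Leaving out a library, the members called higher numbered 379 to 607 and those called lower 263 to 365, with a median log2 change of 0.030 to 0.040. Host genes with the same direction in RNA numbered 126 to 186 and with the opposite 143 to 218. The higher share of calls was 55.4% to 62.6% over all members, 47.9% to 61.0% in hosts with higher RNA and 27.3% to 45.0% under 5 kb from the host start. The DESeq2 Wald test gave 339 higher and 244 lower, a higher share of 58.1%. A chain gap of 25 kb gave 271 lower, a median of 0.050 and a share of 66.5%. Library totals gave a median of 0.061 and a smoothed offset 0.023. Under library totals the higher share was 69.5% over all members, 73.7% in hosts with lower RNA, 65.0% in hosts with higher RNA, 46.4% under 5 kb and 76.0% at 100 kb or more, and the smoothed offset gave 47.7% under 5 kb. Without members within 1 kb of a RefSeq start, chosen after seeing the data like all alternatives for shares and for the replication and mitosis list, that list had 0 falls and a median of 0.28. The median change of members kept its sign under every alternative run, while the order of rises and falls turned in several subsets, as given beside them. Of these results' alternatives, 228 of 255 stayed within a set limit. The 255 include peak fits with no filter, which could not differ, since the filter removed 0 peaks. The limit was 1.5 times for counts, and 1 SD between replicates for medians and for the share of reads. For shares of calls it was the margin of a binomial interval, which treats peaks as independent and does not cover spread between libraries. Of 110 named peaks called, 62 were called under every setting, and leaving out DMSO replicate 3 lost 35.

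The replicate numbers showed no clear pairing of the libraries. Correlations of same-numbered deviations were 0.00538, 0.0402 and -0.0262 in ATAC-seq and 0.106, -0.00513 and 0.0879 in RNA. Such values cannot show that the libraries were unpaired. With the replicate block 675 members were higher and 410 lower, with a median of 0.037, and host genes of same and opposite direction numbered 202 and 227. The block changed no call among the named peaks that were called.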
